A study of Ophthalmotilapia nasuta and Ophthalmotilapia ventralis with 60 samples.

Results

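The genes described here are those of DNA replication and cell division in the brains of 2 cichlid fishes from Lake Tanganyika, Ophthalmotilapia nasuta and Ophthalmotilapia ventralis. They were taken by name: the minichromosome maintenance genes (mcm2 to mcm10), pcna, the prim, rfc, gins and orc genes, cdc6, cdc45, cdc20, cdk1, cdt1, ccna2, the ccnb and ccne cyclins, top2a, mki67, aurora kinases, bub1, bub1b, ttk, plk1, plk4, rrm1, rrm2, tyms, all cenp genes with a single letter, and smc2, smc4, ncapg, ncaph and ncapd2. Of 36499 genes in the count files, 61 carried such a name. The rule uses no measured value, but it was drawn up with earlier results of these data known.

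Brains of 5 mature wild-caught females of O. nasuta and 5 of O. ventralis were divided into 6 parts (telencephalon, olfactory bulbs, diencephalon, optic tectum, cerebellum and brain stem), and transcripts of each part were sequenced from their 3′ end (QuantSeq), which gave 60 libraries. No treatment is named in the labels. Each species came from a site of its own (Mtosi for O. nasuta, Ulwile Island for O. ventralis) and was housed in an aquarium of its own. All fish were killed on the same day with O. nasuta dissected first. Species, site of origin, aquarium and order of dissection therefore cannot be told apart. Within each fish the cerebellum was removed before the other parts and the diencephalon last. Brain part and order of removal thus cannot be told apart either. The diencephalon sample included the preoptic area, the hypothalamus and the pituitary, and reads of both species were mapped to the genome of the Nile tilapia. As whole tissue was sequenced, fewer dividing cells and less RNA per cell cannot be told apart in any value below.

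The bony fish brain keeps making neurons in the adult. Stem cells, many of them radial glia, divide in zones along the ventricles of all major brain divisions and in the cerebellum, and their daughters become neurons or glia. A cell about to divide first licenses its replication origins: the origin recognition complex with Cdc6 and Cdt1 loads the MCM helicase, which Cdc45 and the GINS complex turn into the active form. Primase then starts each DNA strand, the clamp loader RFC places the sliding clamp PCNA, and ribonucleotide reductase and thymidylate synthase supply deoxynucleotides. Cyclin E acts at the entry into S phase and Cdk1 with cyclins A and B at the entry into mitosis. Condensin (Smc2, Smc4 and the Ncap proteins) packs the chromosomes, topoisomerase II alpha disentangles them, and the centromere proteins anchor the kinetochore to which the spindle attaches. Several of these proteins, PCNA and RFC among them, also serve DNA repair, so that their transcripts are not confined to dividing cells.

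These transcripts were rare in all libraries. The 59 libraries used held 137128 to 1531632 counts (median 519523), and the bulb library of O. nasuta fish 5, with 25798 counts, was left out. The 61 genes together had 7180 of 31669417 counts, or 0.0227%, and between 15 and 52 of them (median 38) had a read in a single library. A count of 3 reads corresponds to 1.96 CPM in the deepest library and to 21.9 CPM in the shallowest, and these limits cover counting error only, since the reads carry no molecular identifiers. Levels are given as CPM, the reads of a gene per 1e+06 reads of its library, scaled with TMM factors. One read is made per transcript in this method, so levels were not divided by length.

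Most members lay below the filter used for testing, which asks for more than 15 CPM in at least 4 libraries and left 11680 genes. Only 11 members passed: the helicase subunit gins1, the primase subunit prim2, pcna, the clamp loader subunits rfc1 and rfc2, ccne1, cdk1, smc4, cenpf, cenph and cenpp. The other 50 had 6 to 242 reads over all libraries, with a median of 58. At the border, prim2 exceeded 15 CPM in exactly 4 libraries and no member below the filter did so in more than 3. A gene that is high in 1 brain part passes such a filter more easily, so the 11 do not stand for the 61. Mean levels of the 11 ran from 6.12 CPM (prim2) to 24.1 CPM (rfc1), against a median of 31.4 CPM over all tested genes.

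The labelled brain parts carried genes known for them. For example, zic1 averaged 3868 CPM in the cerebellum of O. nasuta and 4567 CPM in that of O. ventralis, against 269 and 326 CPM in their other parts. Likewise hoxb3 averaged 140 and 112 CPM in the brain stem against 0.468 and 0.280 CPM elsewhere. The exceptions were the bulb libraries of O. nasuta fish 4 and O. ventralis fish 1. In these, gnrh3 had 0 and 0 reads and npff 1 and 0, while the other bulb libraries used had 132 to 491 reads of gnrh3 and 206 to 966 of npff. th was less clear, with 1 and 0 reads in these libraries and 0 to 38 in the others, where O. ventralis fish 3 had 0. The main levels and calls of the bulbs are therefore also given without these 2 libraries, a choice made after seeing the data. The telencephala of the same fish had 25 and 24 reads of gnrh3 and 65 and 72 of npff. Telencephala of the other fish had 0 to 12 and 0 to 30. Those of O. nasuta fish 4 and O. ventralis fish 1 were also the deepest of their species, with 975353 and 945262 counts. They were left out only together with the whole fish. According to the paper, the small bulbs gave little RNA, and some bulb samples had too low an amount. It proposes that this may explain the larger variation between bulb replicates. Which bulb libraries these were is not stated.

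Summed over all 61 genes, the level was highest in the cerebellum. In O. nasuta the cerebellum had 262, 244, 295, 276 and 262 CPM in fish 1 to 5, and in O. ventralis 300.1, 304, 303, 312 and 370 CPM. The cerebellum was above the mean of the other parts of the same fish in 10 of 10 fish, by a ratio of 1.30 ± 0.175 in O. nasuta and 1.36 ± 0.130 in O. ventralis (SD, n = 5 each). It was the highest of all parts in 4 of 5 O. nasuta and in 3 of 5 O. ventralis. The ratio is a description without a test, since earlier results of these data were known when the genes were chosen. In this and the following counts of fish, a part is set against the mean of the other parts of the same fish.

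Lowest were the diencephalon in O. nasuta and the telencephalon in O. ventralis. The diencephalon's summed level was 190 ± 15.3 CPM in O. nasuta, beside 210.2 ± 15.3 CPM in O. ventralis, and it was below the mean of the other parts in 10 of 10 fish with ratios of 0.848 and 0.823. Telencephala had 213 ± 28.1 and 204 ± 25.6 CPM with ratios of 0.972 and 0.801, and in O. ventralis this part was below the mean of the others in all 5 fish. Brain stems had 216 ± 21.0 CPM in O. nasuta, beside 242 ± 22.5 CPM in O. ventralis, and optic tecta had 206 ± 22.0 and 247 ± 43.3 CPM. Olfactory bulbs had 216 ± 25.8 CPM (n = 4) and 267 ± 35.5 CPM, or 221 ± 27.4 CPM (n = 3) and 269 ± 36.1 CPM (n = 4) without the 2 libraries lacking bulb markers. Over both species the order of the ratios was cerebellum 1.33, olfactory bulb 1.05, brain stem 0.981, optic tectum 0.966, telencephalon 0.887 and diencephalon 0.835, and without those 2 libraries the ratio of the bulb was 1.05. Apart from the cerebellum, neighbours in this order differed by less than the spread between fish (SD 0.0594 to 0.146). With each fish left out in turn, with another scaling and without pcna, the cerebellar ratio remained between 1.28 and 1.38.

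**Figure D1:**
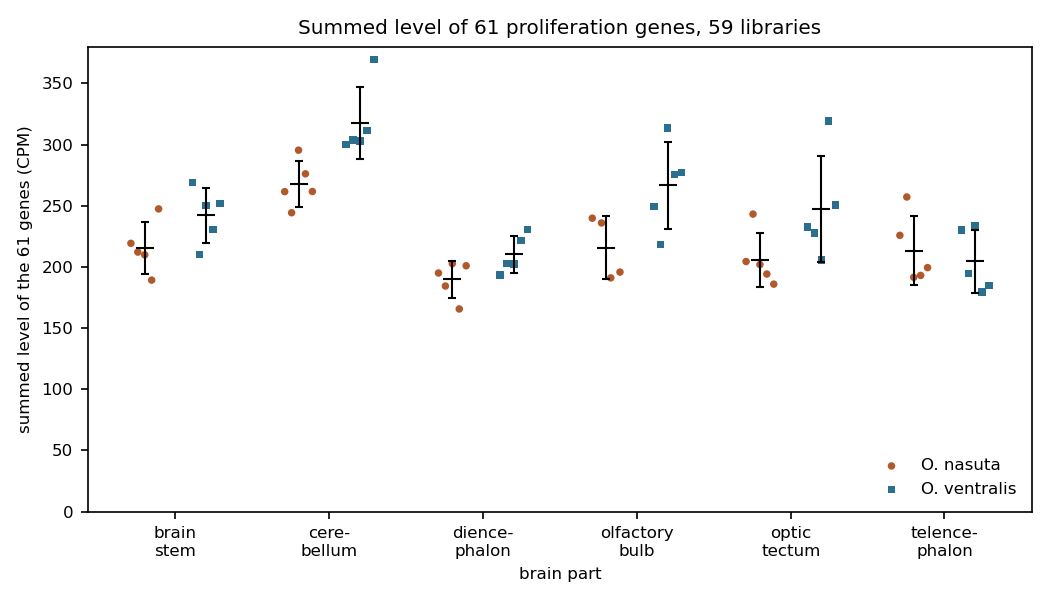
Summed level of the 61 proliferation genes (vertical axis, CPM) in each of the 59 libraries, by brain part (horizontal axis) and species (circles, O. nasuta; squares, O. ventralis), with the mean and SD of each group. The cerebellum lies highest in both species, at 268 CPM in O. nasuta, beside 318 CPM in O. ventralis, and the diencephalon is low in both, at 190 and 210.2 CPM.

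The cerebellum was also the part in which most single members peaked. Of the 61, 25 had their highest mean level over both species there, against 8 each in the brain stem, olfactory bulb and optic tectum, 7 in the telencephalon and 5 in the diencephalon. Among them were mcm2, mcm6, mcm8, mcm10, orc1, orc3, orc5, rfc4, smc2, ncapd2, mki67 and ccna2. Of the 25, 7 had fewer than 50 reads in all 59 libraries, as had 23 of the 61. Without the 2 bulb libraries, 24 peaked in the cerebellum and 11 in the olfactory bulb. The same count over all genes is not given here, so the 25 cannot be read as particular to the members. Of all tested genes, 17.3% in O. nasuta and 19.2% in O. ventralis were called higher in the cerebellum, the largest such shares of any part.

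**Figure D2:**
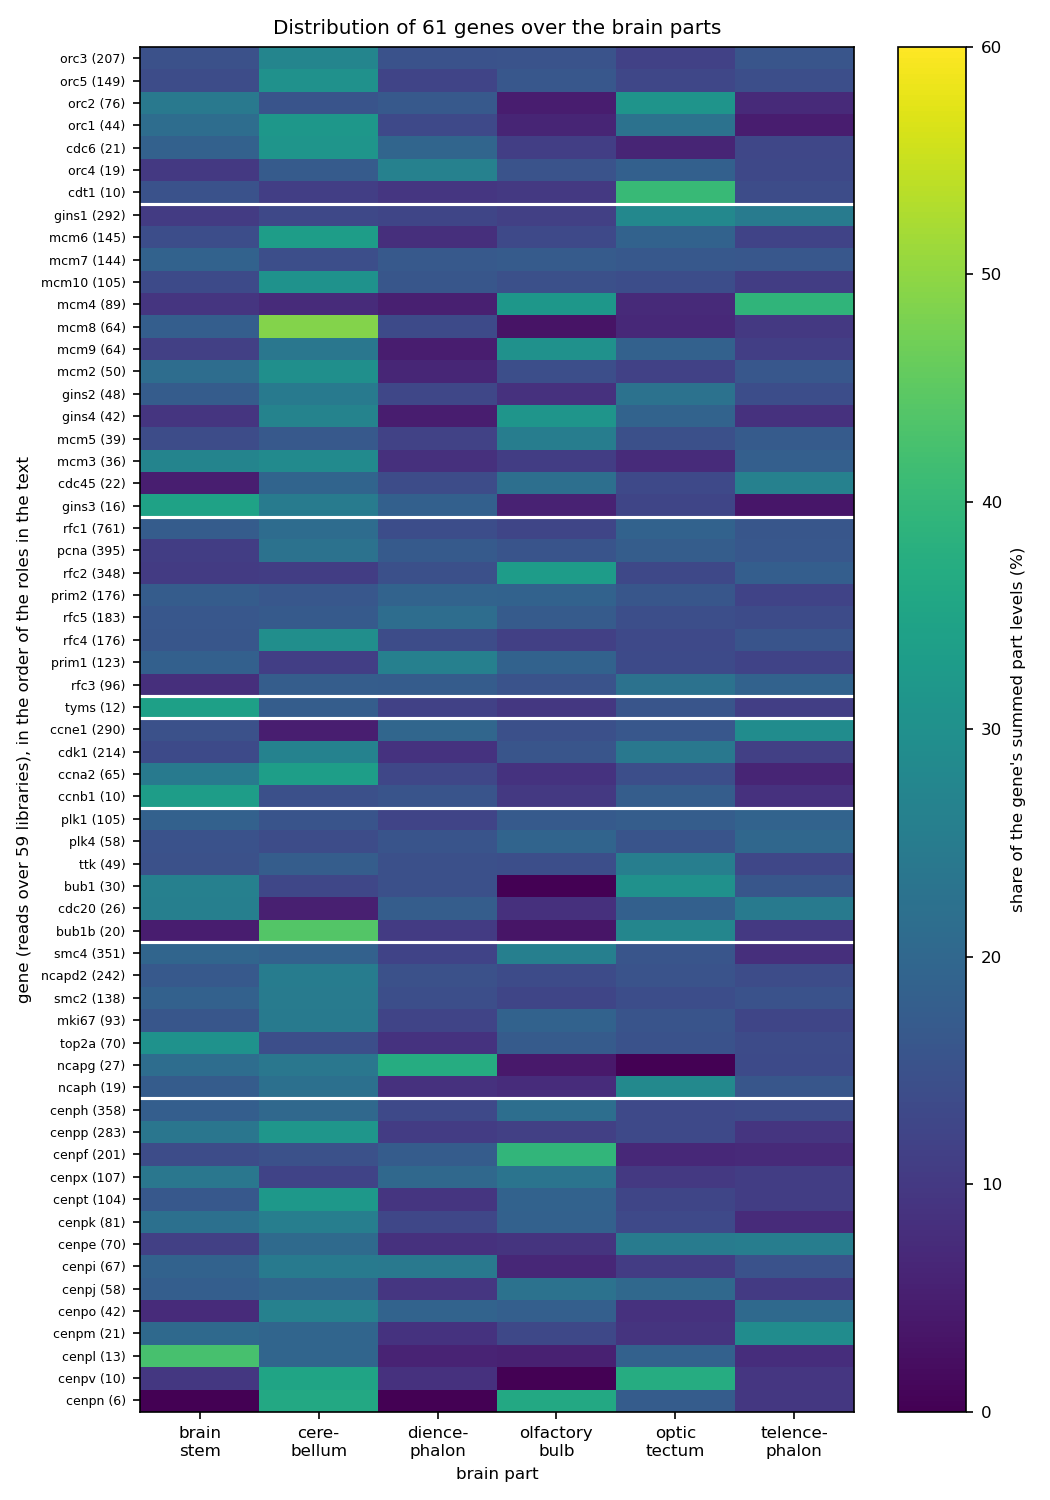
Distribution of each of the 61 genes over the 6 brain parts: colour gives the percent of the sum of a gene's 6 part levels (CPM averaged over the species) that falls in each part, with the reads of the gene over 59 libraries in brackets and white lines between the roles. The cerebellum holds the highest share for 25 genes, and genes with few reads, such as cenpn with 6, show extreme shares.

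Summed by role, the genes listed under the replicative helicase were high in the cerebellum and low in the diencephalon. With mcm8 and mcm9 counted among them, the 14 genes summed to 52.6 ± 6.38 CPM in the cerebellum of O. nasuta and to 46.1 ± 9.29 CPM in that of O. ventralis. The cerebellum was above the mean of the other parts in 10 of 10 fish. The diencephalon had 22.0 ± 2.41 and 27.6 ± 2.22 CPM and was below that mean in 10 of 10. Of single genes, mcm2, mcm3, mcm6, mcm8, mcm10 and gins2 were highest in the cerebellum over both species. The others of the 14 peaked in other parts, and mcm7 was lowest in the cerebellum (3.88 CPM). mcm8, which acts in recombination repair, had 6.42 CPM in the cerebellum and 0.414 to 2.34 CPM in the other parts. In sum, the 7 origin recognition and licensing genes were likewise above the other parts in the cerebellum of all 10 fish. The ratios were 1.66 ± 0.817 in O. nasuta and 1.87 ± 0.270 in O. ventralis. Over both species, orc3 (11.0 CPM) and orc5 (8.65 CPM) had most of that cerebellar sum. While orc1 and cdc6 also peaked there, orc2 and cdt1 peaked in the optic tectum and orc4 in the diencephalon. For the chromosome structure genes, mki67 and top2a among them, the cerebellar sums were 35.7 and 45.1 CPM, again above the other parts in 10 of 10 fish.

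Centromere proteins, taken by their cenp names whatever their role, were highest in sum in the cerebellum and the olfactory bulb. Their 14 genes summed to 51.0 ± 12.6 CPM in the cerebellum of O. nasuta and 77.7 ± 15.4 CPM in that of O. ventralis, and to 49.7 ± 11.6 and 63.9 ± 5.43 CPM in the olfactory bulb (52.1 ± 12.6 and 63.6 ± 5.82 CPM without the 2 libraries lacking bulb markers). The brain stem of O. nasuta, at 49.0 CPM, was close to its bulb. Much of the bulb's sum came from cenpf, which over both species had 16.4 CPM there and 2.89 to 7.29 CPM in the other parts. While cenph and cenpj also peaked in the bulb, cenpi, cenpl and cenpv were lowest in it. In the telencephalon, with 29.5 ± 8.12 and 37.0 ± 8.15 CPM, the sum of the 14 genes was below the mean of the other parts in 10 of 10 fish. The optic tectum of O. nasuta was lower still, at 26.9 ± 7.44 CPM and below that mean in 4 of 5 fish, while that of O. ventralis had 45.1 ± 13.3 CPM. Primase, clamp and clamp loader varied less, with cerebellar ratios of 1.16 ± 0.206 and 1.20 ± 0.0367. Cyclins with cdk1 were above the other parts on average in the telencephalon, with ratios of 1.27 ± 0.233 in O. nasuta (4 of 5 fish) and 1.12 ± 0.292 in O. ventralis (3 of 5). So they were in the optic tectum, with 1.26 ± 0.223 (5 of 5) and 1.14 ± 0.527 (2 of 5). In the cerebellum the ratio of these genes was 0.833 ± 0.275 in O. nasuta (1 of 5) and 1.285 ± 0.545 in O. ventralis (3 of 5). Over both species, the telencephalic sum rested mostly on ccne1, with 16.0 CPM there and 2.81 CPM in the cerebellum, its lowest part. Both cdk1 (12.1 CPM) and ccna2 (4.21 CPM) were highest in the cerebellum. In the telencephalon cdk1 had 5.19 CPM, and ccna2 (0.768 CPM) and ccnb1 (0.172 CPM) were at their lowest. The 6 mitotic kinase, checkpoint and APC/C genes summed to only 6.44 to 12.8 CPM. Their cerebellar ratios were 1.10 ± 0.983 in O. nasuta and 1.17 ± 1.25 in O. ventralis, with 2 of 5 fish above 1 in each species. tyms, the only gene for deoxynucleotide supply found by name, had 12 reads in all. The names ccnb2, ccne2, aurka, aurkb, rrm1, rrm2, orc6, cenpa and cenpb were absent from the gene symbols of the counts and so could not be analysed.

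The classic markers of dividing cells were close to the limit of detection, with reads given for fish 1 to 5 (1 to 4 for the bulb of O. nasuta). mki67 encodes the Ki-67 antigen of cycling cells. In O. nasuta its reads were 3, 1, 2, 1 and 0 (telencephalon), 1, 1, 1 and 1 (olfactory bulb), 2, 0, 2, 0 and 0 (diencephalon), 2, 4, 0, 0 and 1 (optic tectum), 0, 0, 2, 2 and 3 (cerebellum), 2, 1, 3, 2 and 0 (brain stem). In O. ventralis they were 5, 1, 1, 0 and 0 (telencephalon), 3, 0, 1, 5 and 3 (olfactory bulb), 1, 1, 1, 1 and 2 (diencephalon), 0, 1, 1, 2 and 2 (optic tectum), 7, 2, 1, 3 and 5 (cerebellum), 0, 2, 2, 3 and 0 (brain stem). Its 93 reads gave 4.30 CPM in the cerebellum and 2.18 to 3.30 CPM in the other parts, and the parts of a species overlapped. top2a had 70 reads and was highest in the brain stem. Its reads in O. nasuta were 0, 2, 3, 2 and 0 (telencephalon), 1, 2, 1 and 0 (olfactory bulb), 2, 1, 0, 1 and 0 (diencephalon), 0, 0, 0, 0 and 1 (optic tectum), 0, 0, 1, 1 and 2 (cerebellum), 1, 0, 3, 2 and 1 (brain stem). Those in O. ventralis were 3, 0, 1, 0 and 1 (telencephalon), 2, 0, 1, 4 and 1 (olfactory bulb), 1, 0, 0, 0 and 2 (diencephalon), 0, 2, 2, 2 and 2 (optic tectum), 2, 0, 2, 0 and 3 (cerebellum), 3, 1, 3, 0 and 5 (brain stem). The parts of a species overlapped in top2a as well.

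The helicase subunits mcm2 and mcm5 had 50 and 39 reads. For mcm2, the reads of O. nasuta were 0, 1, 1, 1 and 2 (telencephalon), 3, 1, 1 and 0 (olfactory bulb), 0, 1, 0, 1 and 0 (diencephalon), 0, 1, 1, 1 and 0 (optic tectum), 1, 1, 1, 2 and 2 (cerebellum), 0, 2, 3, 1 and 0 (brain stem). For O. ventralis they came to 0, 0, 1, 2 and 1 (telencephalon), 0, 0, 1, 2 and 0 (olfactory bulb), 1, 0, 0, 0 and 0 (diencephalon), 0, 1, 2, 0 and 0 (optic tectum), 1, 2, 1, 1 and 1 (cerebellum), 1, 2, 1, 1 and 0 (brain stem). No library had more than 3 reads of it, and the cerebellum was the only part with a read in all 10 libraries. mcm5 in O. nasuta had 0, 3, 0, 0 and 1 (telencephalon), 1, 2, 1 and 0 (olfactory bulb), 0, 0, 1, 0 and 0 (diencephalon), 1, 2, 1, 0 and 0 (optic tectum), 0, 0, 0, 1 and 1 (cerebellum), 1, 0, 0, 0 and 0 (brain stem). In O. ventralis mcm5 had 1, 2, 0, 1 and 0 (telencephalon), 0, 0, 1, 3 and 2 (olfactory bulb), 2, 0, 0, 0 and 0 (diencephalon), 0, 0, 0, 1 and 1 (optic tectum), 0, 1, 1, 1 and 1 (cerebellum), 1, 0, 1, 3 and 0 (brain stem). Here, too, no library held more than 3 reads. ccnb1, cyclin B, had 10 reads in 9 libraries: 2 in the brain stem of O. nasuta fish 4 and 1 each in the brain stem of O. ventralis fish 4, the cerebellum of O. ventralis fish 4, the diencephalon of O. nasuta fish 1 and 4, the bulb of O. ventralis fish 1, the optic tectum of O. nasuta fish 1 and 2 and the telencephalon of O. ventralis fish 2. Differences between parts were not detectable for these 5 genes at this depth.

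For the 11 tested members, each part of a species was set against the average of its other 5 parts with the fish as a block (edgeR's quasi-likelihood test). Testing was stage-wise: a gene had to pass a joint test of all 12 comparisons (false discovery rate 0.05) before its single comparisons were tested, and the adjusted p below is that of the single comparison under Holm's correction. The joint test passed 8 of 11 members, against 76.5% of all tested genes. Of the 4592 genes with mean levels between those of prim2 and rfc1, 60.5% passed. Not passed were pcna (q = 0.0616), rfc1 (q = 0.120) and prim2 (q = 0.133). In 132 single comparisons, 10 calls were higher and 3 lower, and 34 had an unadjusted p under 0.05.

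Few members were called in any single part. In the cerebellum, 1 was higher and 1 lower in each species, while 17.3% of all tested genes were called higher and 19.9% lower in O. nasuta and 19.2% and 21.8% in O. ventralis. The median log2 fold change of the 11 was 0.35 in the cerebellum of O. nasuta and 0.42 in that of O. ventralis, against −0.04 and −0.01 over all tested genes. In the olfactory bulb 3 members were higher in O. nasuta, 1 was higher in O. ventralis and none was lower, against 13.5% and 8.04% (higher and lower) of all genes in O. nasuta and 15.2% and 9.02% in O. ventralis. Without the 2 libraries lacking bulb markers, 3 and 2 were higher. The telencephalon had 2 higher in O. nasuta, and 1 higher and 1 lower in O. ventralis, against 15.8% and 13.1% of all genes and 16% and 12.2%. Medians there were 0.02 in O. nasuta and −0.24 in O. ventralis, with −0.01 and −0.03 over all tested genes.

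In the remaining parts a single call was made. The brain stem had 1 member higher in O. nasuta and 0 in O. ventralis, with 13.9% and 6.31% of all genes higher and lower in O. nasuta and 12.7% and 6.05% in O. ventralis. Diencephalon (11.6% and 6.53% of all genes, 12.4% and 8.11%) and optic tectum (14.4% and 8.93%, 12.7% and 7.39%) had 0 of 11 members called by edgeR in either species. At an unadjusted p under 0.05, the diencephalon had 1 member lower in O. nasuta and 1 higher in O. ventralis, and the optic tectum 1 higher and 1 lower in O. nasuta and 1 higher in O. ventralis. DESeq2 called 0 members in the diencephalon and 1 in the optic tectum of each species, which was gins1 both times (log2 fold change 1.05 in O. nasuta, adjusted p = 0.0414, and 1.08 in O. ventralis, adjusted p = 0.0443). In the brain stem of O. ventralis, 1 member was lower at an unadjusted p under 0.05 and DESeq2 called 0. With 11 members, counts of 0 to 3 in a part cannot be told from these shares.

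**Figure D3:**
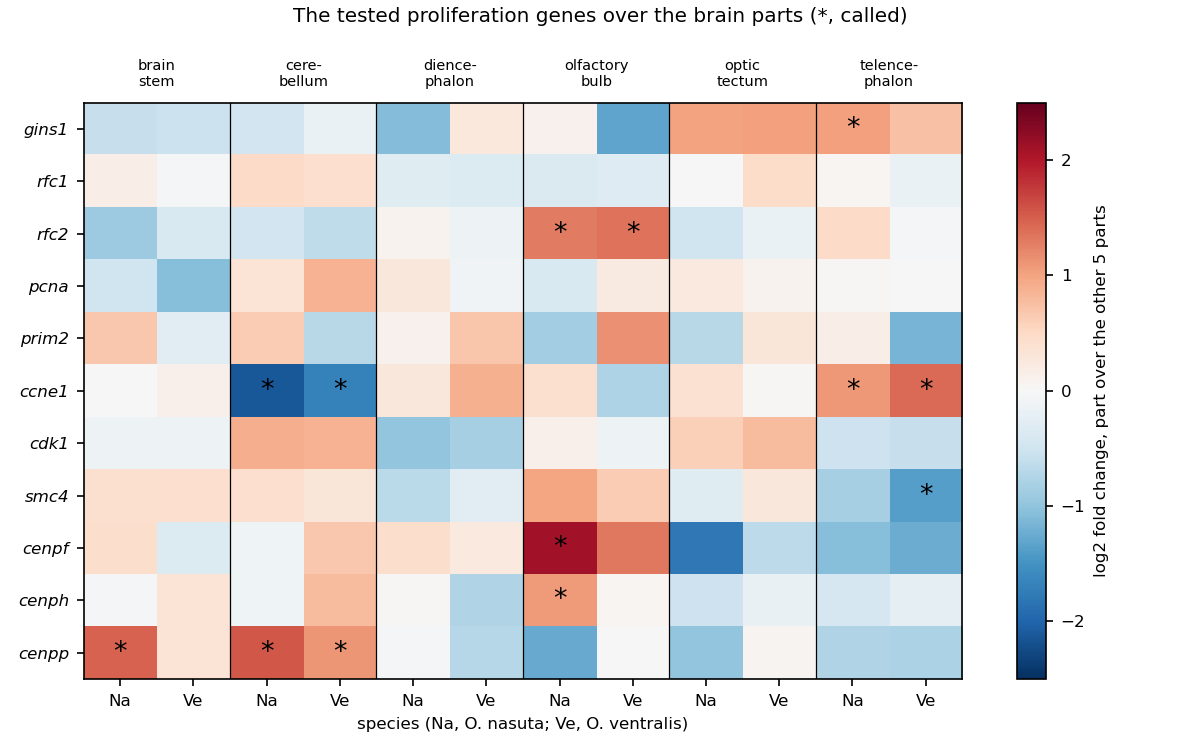
Log2 fold change of each tested member (rows) in each brain part over the average of the other 5 parts, by species (columns, Na for O. nasuta and Ve for O. ventralis), from red (higher) to blue (lower), with an asterisk where the stage-wise test called it. Of the 13 asterisks, 7 belong to ccne1 and cenpp, and rfc2 has one in the olfactory bulb of each species.

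Calls in the same part and direction in both species were made for ccne1, cenpp and rfc2, or 3 of 11 members, against 49.7% of all tested genes.

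gins1, a subunit of the GINS complex, stood high in the optic tectum and telencephalon. Its telencephalic levels were 10.9, 17.7, 9.42, 13.2 and 18.7 CPM in O. nasuta fish 1 to 5, and means in the other parts of that species ran from 4.01 CPM (diencephalon) to 14.0 CPM (optic tectum). The telencephalon of O. nasuta was called higher than the other parts by a log2 fold change of 1.03 (standard error 0.329, adjusted p = 0.0387). That call was lost when O. nasuta fish 1, 3, 4 or 5 was left out, with log2 fold changes down to 0.83, and without the fish terms. In O. ventralis the 2 parts had 13.1 ± 6.29 CPM (telencephalon) and 16.6 ± 5.73 CPM (optic tectum) and no comparison of gins1 was called. All 7 libraries over 15 CPM were optic tecta (4) or telencephala (3), through which alone it passed the filter. Over both species the optic tectum was its highest part, at 15.3 CPM, and the brain stem its lowest, at 5.63 CPM.

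Among the genes of the clamp loader, rfc2 was high in the olfactory bulb of both species. It encodes one of the small ATPase subunits that open and close the clamp. Bulb levels were 24.6, 26.0, 21.0 and 22.4 CPM in O. nasuta fish 1 to 4 (25, 13, 18 and 8 reads) and 24.3, 29.1, 28.0, 13.5 and 15.5 CPM in O. ventralis fish 1 to 5 (12, 4, 10, 7 and 8 reads). Means of the other parts were 7.30 to 15.6 CPM in O. nasuta and 6.28 to 9.45 CPM in O. ventralis. In O. nasuta only the telencephala of fish 2 and 3, at 21.6 and 23.5 CPM, reached the range of the bulbs, and in O. ventralis only the optic tectum of fish 1 did, at 20.2 CPM.

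The log2 fold change of rfc2 in the bulb was 1.31 in O. nasuta (standard error 0.281, adjusted p = 0.000221) and 1.37 in O. ventralis (standard error 0.304, adjusted p = 0.000363). It was called in both species under every alternative tried, and without the bulb libraries lacking bulb markers it was 1.29 (adjusted p = 0.00129) and 1.42 (adjusted p = 0.00302). Those libraries, at 22.4 and 24.3 CPM, were as high in rfc2 as the others. The large subunit rfc1 was highest in the cerebellum, at 28.6 ± 6.15 CPM in O. nasuta, beside 32.6 ± 6.42 CPM in O. ventralis, and lowest in the bulb, at 17.7 ± 5.18 and 18.2 ± 10.8 CPM (19.8 ± 3.42 and 17.4 ± 12.2 CPM without those 2 libraries, beside 19.2 CPM in the diencephalon of O. nasuta), and did not pass the joint test. The other small subunits rfc3, rfc4 and rfc5 had 96 to 183 reads and were highest in the optic tectum, cerebellum and diencephalon.

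pcna, the sliding clamp and a common marker of proliferation, was highest in the cerebellum. There it had 9.02, 23.1, 20.0, 22.6 and 7.23 CPM in O. nasuta and 18.1, 11.5, 17.6, 23.7 and 22.1 CPM in O. ventralis. The ranges overlapped those of every other part, of which the brain stem was lowest with 10.3 ± 4.86 CPM in O. nasuta, beside 6.61 ± 5.08 CPM in O. ventralis. With the 2 bulb libraries left out pcna passed the joint test, and the cerebellum of O. ventralis was called higher (log2 fold change 0.93, adjusted p = 0.0309). prim2, the large subunit of primase, had 176 reads in all and was highest in the diencephalon over both species (7.02 CPM). Its part means of 3.40 to 10.4 CPM had SDs of up to 8.10 CPM.

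ccne1 (cyclin E) had the lowest q of the 11 members in the joint test (7.22e-06). In the telencephalon it had 12.7, 29.4, 11.0, 25.2 and 18.7 CPM in O. nasuta fish 1 to 5 and 17.3, 8.60, 13.5, 14.3 and 8.71 CPM in O. ventralis. In the cerebellum it had 4.51, 3.30, 2.22, 4.53 and 1.45 CPM in O. nasuta and 0.698, 0, 5.88, 0 and 5.52 CPM in O. ventralis, which are 6 reads in each species. No telencephalon was as low as any cerebellum of the same species, and the cerebellum of O. nasuta lay below every other library of O. nasuta.

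The telencephalon was higher in ccne1 by a log2 fold change of 1.08 in O. nasuta (standard error 0.281, adjusted p = 0.00352) and of 1.41 in O. ventralis (standard error 0.347, adjusted p = 0.00172). The cerebellum was lower by −2.13 (standard error 0.488, adjusted p = 0.000641) and −1.69 (standard error 0.520, adjusted p = 0.0203). So the part with the highest summed level of the 61 genes had the lowest level of ccne1. Of these 4 calls, 3 depended on single fish. The cerebellum of O. ventralis lost its call without fish 1 (−1.09, adjusted p = 0.794), fish 2 or fish 4, the telencephalon of O. ventralis without fish 1 (1.15, adjusted p = 0.0968) and that of O. nasuta without fish 4 (0.97, adjusted p = 0.0702). Fish 4 of O. nasuta and fish 1 of O. ventralis are those whose bulb libraries lacked bulb markers. The cerebellum of O. nasuta kept its call with any fish left out.

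cdk1, the kinase of mitotic entry, passed the joint test (q = 0.0481) without a called part. It was highest in the cerebellum, with 9.02, 16.5, 6.66, 9.05 and 4.34 CPM in O. nasuta and 11.2, 9.56, 17.6, 14.8 and 22.1 CPM in O. ventralis. In O. ventralis the optic tectum was as high, at 15.1 ± 11.6 CPM with a range from 3.58 to 29.7 CPM. The diencephalon was lowest, with 2.57 ± 3.19 and 5.44 ± 2.14 CPM. Its one comparison with an unadjusted p under 0.05 was the cerebellum of O. ventralis (log2 fold change 0.87, standard error 0.356, adjusted p = 0.266).

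smc4, the ATPase subunit shared by the condensin complexes, was low in the telencephalon. Levels there were 3.64, 7.85, 3.14, 4.39 and 8.73 CPM in O. nasuta and 5.41, 8.60, 10.1, 6.11 and 0 CPM in O. ventralis. Part means elsewhere ran from 6.42 to 16.1 CPM in O. nasuta and from 10.8 to 21.0 CPM in O. ventralis, highest in the olfactory bulb of both, where the means without the 2 libraries were 15.8 and 24.5 CPM. Only the telencephalon of O. ventralis was called, with a log2 fold change of −1.38 (standard error 0.381, adjusted p = 0.00851), and this call was lost without fish 4 or fish 5 of that species.

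cenpf, a large kinetochore protein that accumulates late in the cell cycle, was highest in the olfactory bulb. It had 11.8, 32.0, 9.32 and 22.4 CPM in O. nasuta fish 1 to 4 and 4.06, 29.1, 0, 17.4 and 19.4 CPM in O. ventralis fish 1 to 5. In the optic tectum all 5 libraries of O. nasuta held a single read, or 1.58 to 2.66 CPM. Of its 6 libraries over 15 CPM, 5 were bulbs, so that cenpf could be tested only through the part in which it was high. The bulb of O. nasuta was called higher by a log2 fold change of 2.09 (standard error 0.406, adjusted p = 3.11e-05), and this held under every alternative in which cenpf was tested (1.78 to 2.45). In O. ventralis, where the bulb libraries of fish 1 and 3 were low, the bulb was not called, but it was without the 2 libraries lacking bulb markers (1.55, adjusted p = 0.0209) and by DESeq2 (1.43, adjusted p = 0.0350).

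cenph, a protein of the inner kinetochore, followed cenpf in the bulb of O. nasuta, with 27.5, 16.0, 15.1 and 11.2 CPM (log2 fold change 1.07, standard error 0.336, adjusted p = 0.0337), and 1.32 without the 2 libraries lacking bulb markers (adjusted p = 0.00666). Over both species the bulb was its highest part, at 14.7 CPM. The call was lost under 13 of 20 alternatives, and the log2 fold change was 0.65 without O. nasuta fish 1, whose library had the highest value. In O. ventralis the cerebellum was higher than the bulb, at 17.2 ± 6.38 CPM against 11.9 ± 6.03 CPM, and no part was called.

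cenpp, of the complex that links centromeric chromatin to the outer kinetochore, was highest in the cerebellum and brain stem. Cerebellar levels were 13.5, 6.60, 13.3, 20.4 and 10.1 CPM in O. nasuta and 10.5, 15.3, 32.3, 11.9 and 49.6 CPM in O. ventralis. The cerebellum was called higher by a log2 fold change of 1.55 in O. nasuta (standard error 0.404, adjusted p = 0.00389) and of 1.11 in O. ventralis (standard error 0.294, adjusted p = 0.00456), and the call was lost in O. nasuta without its fish 4 (1.31, adjusted p = 0.106) and in O. ventralis without its fish 5 (0.86, adjusted p = 0.246). The brain stem of O. nasuta, with 13.8, 15.3, 8.33, 5.05 and 18.3 CPM, was called higher by 1.47 (standard error 0.393, adjusted p = 0.00457), a call lost without fish 1 or fish 2. In the bulb, optic tectum and telencephalon of O. nasuta no library exceeded 7.97 CPM. In O. ventralis, fish 3 and 5 had the highest cenpp levels of the species in the cerebellum, brain stem and optic tectum alike, with 19.7 and 27.6 CPM in the tectum against 2.62 to 7.42 CPM in the other 3 fish.

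**Figure D4:**
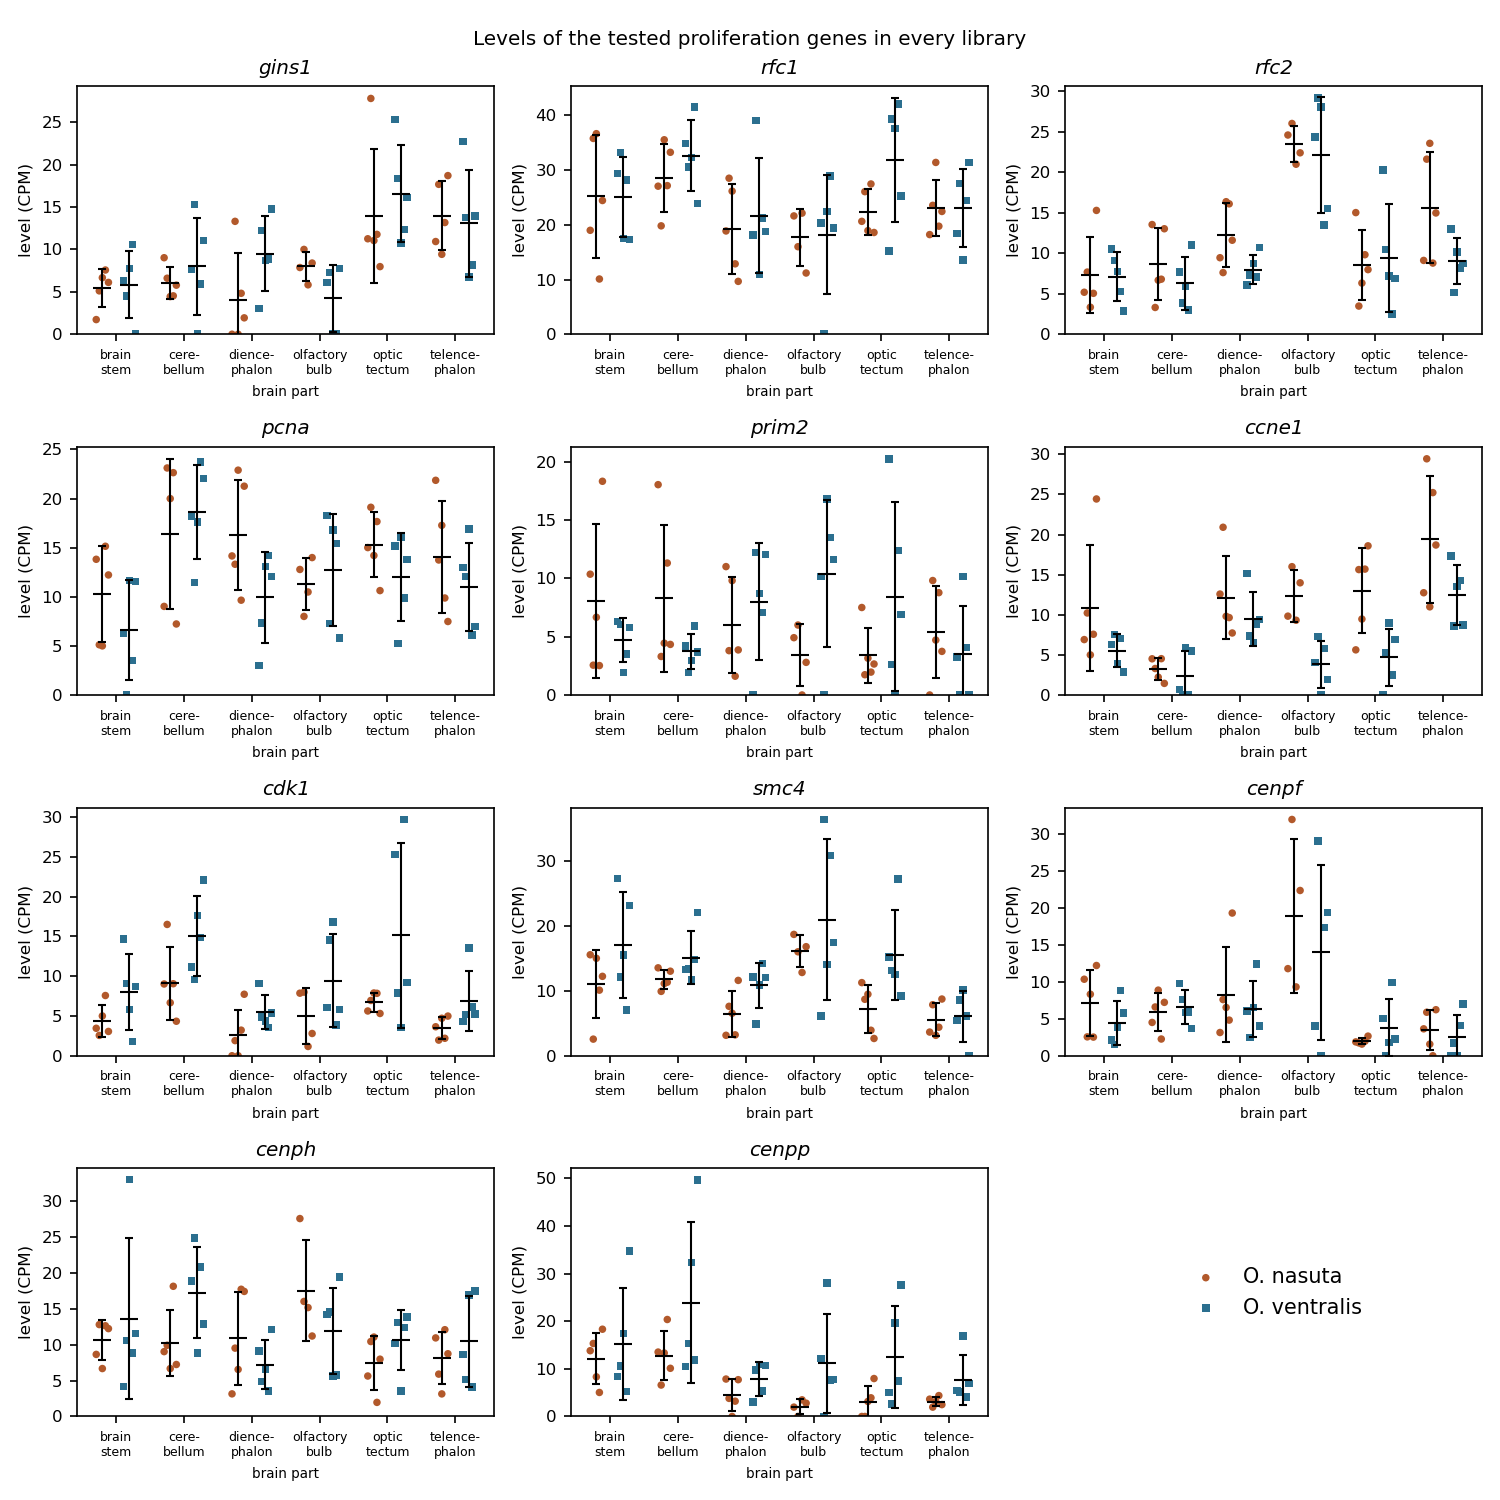
Level (CPM) of each of the 11 tested members in every library, by brain part and species (circles, O. nasuta; squares, O. ventralis), with mean and SD. ccne1 lies lowest in the cerebellum and highest in the telencephalon of both species, rfc2 highest in the olfactory bulb of both, and cenpp is highest in the cerebellum of both, with 49.6 CPM in O. ventralis fish 5.

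Markers of other cells moved with some of these parts. Of 7 genes of microglia and other leukocytes found in the files, 5 were tested, and all 5 were called higher in the brain stem of both species, 3 in the olfactory bulb of O. ventralis and 0 in the bulb of O. nasuta (edgeR), against 13.9% (O. nasuta) and 12.7% (O. ventralis) of all genes in the brain stem and 13.5% and 15.2% in the bulb. Their summed level was 648 to 927 CPM in the brain stem of O. nasuta and 610.3 to 1098 CPM in that of O. ventralis. In the bulbs it was 143 to 375 CPM in O. nasuta and 224 to 1477 CPM in O. ventralis, and no marker was at 0 in either bulb group. Of 7 connective tissue genes, 3 were tested, of which 1 was called higher in the bulb of O. nasuta and 2 in that of O. ventralis, and likewise 1 and 2 in the brain stem. The numbers called in the bulb were the same without the 2 libraries lacking bulb markers (0 and 3 of the leukocyte genes, 1 and 2 of these). In the brain stem their sums were 63.9 to 76.6 CPM in O. nasuta and 40.5 to 162 CPM in O. ventralis. In the bulb they were 30.8 to 92.4 CPM in O. nasuta, where 2 markers were at 0, and 50.4 to 312 CPM in O. ventralis. The part of these cells in the results of rfc2, cenpf, cenph and cenpp was not tested.

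Without the filter, all 61 members entered the same fit with 28251 genes. Then 13 members passed the joint test, against 35.7% of all genes, 4 of them from below the filter: mcm4, mcm6, mcm8 and orc2. Their 6 calls rest on few reads. mcm4 was higher in the telencephalon, with 3, 3, 2, 4 and 5 reads in O. nasuta and 7, 5, 3, 3 and 6 in O. ventralis, against 1 read in all 5 optic tecta and 3 in all 5 cerebella of O. ventralis. The log2 fold changes were 1.78 in O. nasuta (standard error 0.552, adjusted p = 0.0354, 7.11% of all genes called higher) and 2.28 in O. ventralis (standard error 0.518, adjusted p = 0.000351, 7.06%). The call in O. ventralis held with each fish left out, and that in O. nasuta was lost in 5 of 11 alternatives.

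mcm4 was also called in the bulb of O. ventralis (2.26, standard error 0.551, adjusted p = 0.00127, 6.13% of all genes), with 10, 0, 3, 2 and 4 reads. Here the library of fish 1, one of those lacking bulb markers, held 10 of the 19 reads, and the call was lost without that fish (2.08, adjusted p = 0.105) and without the 2 libraries (1.72, adjusted p = 0.364). The telencephalon and the bulb were removed together and then separated.

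Of the 4 genes from below the filter that passed the joint test, mcm6 and mcm8 peaked in the cerebellum. mcm6, a subunit of the MCM ring, had 3, 4, 10, 3 and 13 reads in the cerebellum of O. nasuta (log2 fold change 1.77, standard error 0.393, adjusted p = 0.000220, 6.81% of all genes), and the call was lost without fish 5 (1.48). mcm8, a related helicase that acts in recombination repair, had 6, 1, 4, 3 and 5 reads in the cerebellum of O. ventralis and 0 in all 5 of its bulbs, and the cerebellum was higher by 2.68 (standard error 0.627, adjusted p = 0.000650, 7.83%). orc2, a subunit of the origin recognition complex, had 2, 3, 6, 5 and 2 reads in the optic tectum of O. nasuta, higher by 2.46 (standard error 0.578, adjusted p = 0.000684, 5.76%). The calls of mcm8 and orc2 held with each fish left out. cenpf gained 2 calls without the filter, lower in the optic tectum of O. nasuta (−1.81, adjusted p = 0.0325, 3.45% of all genes) and higher in the bulb of O. ventralis (1.29, adjusted p = 0.0456). The first was lost with any fish left out and without the 2 bulb libraries, and the second with 8 of 10 fish left out.

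No difference between parts was called to differ between the species. In the joint test of how 15 pairwise part differences varied with species, 0 of 11 members passed with edgeR, against 0.402% of all tested genes, with a smallest q of 0.515 and 1 unadjusted p under 0.05 (prim2). DESeq2 passed 0 of 11 and the fit without filter 0 of 61. A p above the threshold does not show that the parts of both species are alike.

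Within single parts, O. nasuta and O. ventralis were compared in a model without fish terms, with p adjusted over all tested genes of a part (Benjamini-Hochberg). This model treats libraries of the same fish as independent, so p may be too small for a gene that varies between fish. The study did not make this comparison, because the tests at hand could not account for variation within and between individuals. Of 66 comparisons, 0 were called by edgeR and 0 by DESeq2, and 7 had an unadjusted p under 0.05. Of all tested genes, 1.06% were called in the brain stem, 2.48% in the cerebellum, 1.46% in the diencephalon, 2.73% in the olfactory bulb, 1.82% in the optic tectum and 2.1% in the telencephalon. Closest to the threshold was cenpp, which was lower in O. nasuta by a log2 fold change of −2.33 in the bulb (standard error 0.708, adjusted p = 0.0518) and −2.25 in the optic tectum (standard error 0.659, adjusted p = 0.0527). In the bulb it had 1.97, 0, 3.49 and 2.80 CPM in O. nasuta and 12.2, 0, 28.0, 7.71 and 7.76 CPM in O. ventralis, so that the groups overlapped at 0. In the tectum only fish 3 and 5 of O. ventralis stood high, as given above. Without the filter both differences were called (adjusted p = 0.0324 in the bulb, where 1.48% of 28251 genes were called, and 0.0259 in the tectum, with 0.754%), and without the 2 bulb libraries only that in the tectum was (adjusted p = 0.0494). The other 5 with an unadjusted p under 0.05 were ccne1 in the bulb (1.68) and tectum (1.18), gins1 in the diencephalon (−1.22), prim2 in the bulb (−1.75) and smc4 in the tectum (−0.997), all with adjusted p between 0.0854 and 0.367.

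Averaged over the parts of a fish, 4 of the 38 members with at least 50 reads did not overlap between the species. ccne1 was higher in O. nasuta, with fish means of 7.80 to 15.9 CPM against 5.89 to 7.25 CPM in O. ventralis. Lower in O. nasuta were cdk1 (4.24 to 6.31 CPM in O. nasuta, 8.51 to 11.8 CPM in O. ventralis), smc4 (8.29 to 11.0 and 12.5 to 16.7 CPM) and plk4, the kinase of centriole duplication (0 to 1.54 and 1.66 to 4.64 CPM). Of 15915 genes with at least 50 reads, 4.6% were without overlap higher in O. nasuta and 4.18% lower, against 1 and 3 of the 38 members, which is near these shares for both directions. Among members whose fish overlapped, rfc5 averaged 3.08 CPM in O. nasuta, beside 8.92 CPM in O. ventralis, and cenpp 6.52 and 13.1 CPM. The cenpp mean of O. ventralis came from fish 3 and 5, at 20.9 and 22.9 CPM. Its other fish, at 6.95 to 7.42 CPM, lay within the range of O. nasuta (4.62 to 9.33 CPM).

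**Figure D5:**
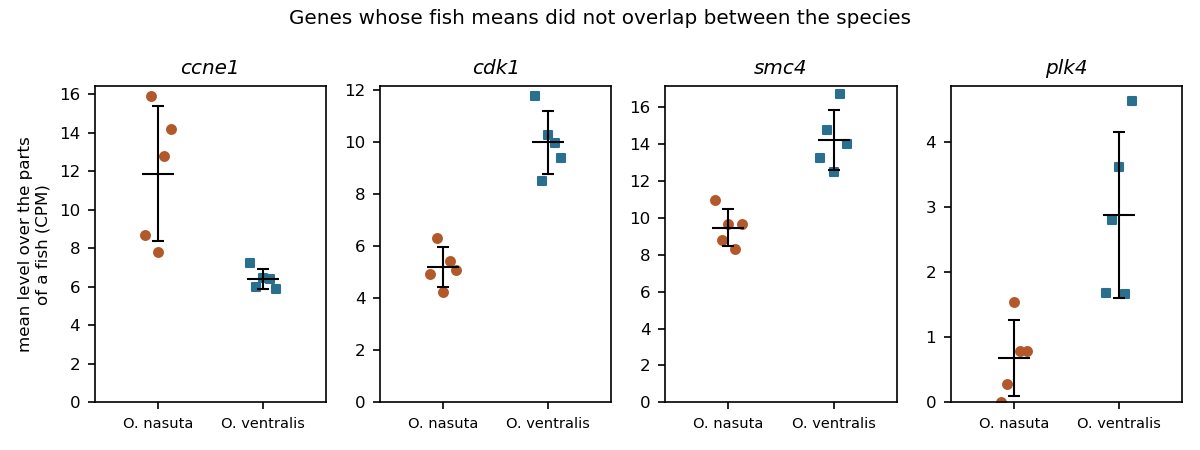
Mean level over the brain parts of a fish (CPM) for the 4 members whose fish means did not overlap, with 1 point per fish, O. nasuta left and O. ventralis right, and mean and SD in black. ccne1 averages 11.9 CPM in O. nasuta, beside 6.40 CPM in O. ventralis, and cdk1, smc4 and plk4 are lower in O. nasuta, at 5.20, 9.47 and 0.681 CPM against 9.99, 14.2 and 2.88 CPM.

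Among other genes of replication and division, msh6, brca2, racgap1 and ccnf were called higher in the cerebellum of both species. Of 36 further replication genes in the files, 9 were tested, and 3 were called higher in the cerebellum of O. nasuta and 2 in that of O. ventralis, and none lower, against 17.3% and 19.2% of all tested genes higher. With 9 genes these counts cannot be told from those shares. Their median log2 fold changes were 0.44 and 0.50, against −0.04 and −0.01 over all tested genes. msh6, of the mismatch repair dimer, averaged 21.7 ± 8.54 CPM in the cerebellum of O. nasuta and 21.6 ± 6.72 CPM in that of O. ventralis, against 5.31 and 4.05 CPM elsewhere (log2 fold change 2.05, standard error 0.375, adjusted p = 8.04e-06, and 2.38, standard error 0.357, adjusted p = 6.13e-08). brca2, of homologous recombination, was higher by 1.20 (adjusted p = 0.0102) and 1.10 (adjusted p = 0.0127). Summed over the 36 genes, the cerebellum had 346 ± 29.7 CPM in O. nasuta, beside 371 ± 30.3 CPM in O. ventralis, and part means elsewhere were 216 to 264 CPM.

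Of 38 further mitosis genes, 6 were tested, and 2 of them were called higher in the cerebellum of both species and 1 lower in that of O. ventralis, beside the same 17.3% and 19.2% of all genes higher and 19.9% and 21.8% lower. racgap1, which acts in cytokinesis, had log2 fold changes of 2.14 (adjusted p = 0.00280) and 2.10 (adjusted p = 3.27e-05). ccnf, a cyclin that works in a ubiquitin ligase, was higher in the cerebellum by 1.65 (adjusted p = 0.0313) in O. nasuta and by 2.90 (adjusted p = 4.96e-08) in O. ventralis, and lower in the diencephalon by −2.87 (adjusted p = 0.0271) and −3.24 (adjusted p = 0.00933). Of 5 tested regulators of G1 and Cdk inhibitors, ccng1 was called in the same direction in both species, higher in the brain stem (0.43 and 0.55) and cerebellum (0.39 and 0.49) and lower in the telencephalon (−0.77 and −1.03).

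In sum, radial glia genes were lower in the cerebellum than in the diencephalon, the reverse of the 61 genes. Radial glia genes (11 in the files, 10 tested) summed to 1866 ± 61.4 CPM in the cerebellum of O. nasuta and 2086 ± 154 CPM in that of O. ventralis, beside 4204 ± 511 and 4360 ± 269 CPM in the diencephalon, where the proliferation genes were low in both species. Of the 10, 1 was called higher in the cerebellum of each species, while 4 were lower in O. nasuta and 5 in O. ventralis, against 17.3% and 19.2% of all genes higher and 19.9% and 21.8% lower. The higher one was pax6 (4.03 and 4.29), a gene that cerebellar granule cells also express. gfap, the glial intermediate filament, was higher in the optic tectum (2.28 and 2.57) and brain stem (2.09 and 1.86), as was fabp7, a fatty acid binding protein of radial glia (0.39 and 0.87 in the tectum, 0.99 and 0.94 in the brain stem). slc1a2, a glial glutamate transporter, was lower in the cerebellum (−1.09 and −1.04).

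Genes of progenitors and newborn neurons (18 in the files, 14 tested) were highest in sum in the cerebellum, with 3999 ± 234 CPM in O. nasuta, beside 4611 ± 540 CPM in O. ventralis, but they went different ways. neurod1, which granule cells also keep, was higher in the cerebellum (3.89 and 4.35). dcx, a microtubule protein of migrating young neurons, was lower in the cerebellum (−2.21 and −1.71) and higher in the telencephalon (1.39 and 1.24) and olfactory bulb (0.86 and 0.90). prox1 was higher in the diencephalon (4.55 and 5.09), and tbr1, a transcription factor of pallial neurons, in the telencephalon (5.61 and 5.57). Of the 14 genes, 8 were called higher in the bulb of O. nasuta and 7 in that of O. ventralis, and 3 lower in each, against 13.5% and 15.2% of all genes higher and 8.04% and 9.02% lower. These numbers were the same without the 2 libraries lacking bulb markers. In the telencephalon 7 were higher and 4 lower in each species, against 15.8% and 16% of all genes higher and 13.1% and 12.2% lower. The granule lineage list, 13 genes with cerebellar sums of 9351 CPM in O. nasuta, beside 10129 CPM in O. ventralis against 525 to 2782 CPM elsewhere, moved with the cerebellar results above, and its part in them was not tested.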

How the data were processed

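Per the labels and the methods of the study, the authors trimmed reads with Trimmomatic, mapped them to the genome of the Nile tilapia with STAR 2.5.2b and counted reads per gene by strand (HTSeq-count 0.6.1p1), dropping reads that overlapped more than 1 feature. The deposited value is therefore a count of reads per gene and library, not normalized. Of the reads assigned to a gene, to no feature or to more than 1 feature, on average 83.2% fell in genes. Genes were matched to the rule by the symbols in the files. Reads that gene copies share may be dropped by such counting, and since both species were mapped to another one, levels between them can differ through mapping alone.

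From these counts, CPM with TMM factors were computed and tested in R 4.3.3 with edgeR 4.0.16 (quasi-likelihood test) and limma 3.58.1. The standard errors were not estimated by the fit. Each is the absolute log2 fold change divided by the square root of the test's F statistic, and is approximate. The filter kept genes with more than 15 CPM in 4 or more libraries, and these hold 98.0% of the counts. Each part of a species was compared with the mean of its other parts in a paired model with fish as block, with 12 part comparisons and 15 contrasts for their variation with species, both stage-wise at a false discovery rate of 0.05. The 6 species comparisons within parts had no fish terms. The pairing comes from the number at the end of each label, which the study's own model takes as the fish. Residuals of libraries from the same fish correlated by 0.0497 (mean of 145 pairs), against −0.0124 for libraries of different fish of a species (580 pairs). The library with 25798 counts was left out. Scripts were tested on simulated data. Floors cover counting error only.

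Members and gene lists were chosen with earlier results of these data known. Any member could be named. By rule, every library is shown (in the text or a plot) for pcna, mcm2, mcm5, top2a, mki67, cdk1, ccnb1 and the tested members with the lowest joint p, and of each other list up to 4 genes were named that passed in the same part and direction in both species, by lowest joint p. Alternatives tried were all 60 libraries, no filter, filterByExpr, DESeq2 1.42.0 and its size factors, edgeR's current fit, Benjamini-Hochberg adjustment within each comparison, no replicate block, thinning to 137128 counts, each fish left out in turn and, chosen after seeing the data, the 2 bulb libraries left out. Sequences were not used here.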

Additional observations from a re-analysis of the deposited data

Results flagged for a closer look

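Of 144 groups of 4 or 5 libraries of the tested members and the summed levels, 9 held a library that stood apart from its group by Dixon's criterion. For normally distributed values the criterion flags about 1 group in 20, a rate that need not hold for levels resting on few reads. All 9 were the highest of their group. In O. nasuta they were ccne1 in the brain stem of fish 5 (24.4 CPM, next 10.2 CPM), cenpf in the diencephalon of fish 5 (19.3 CPM, next 7.60 CPM), cenph in the cerebellum of fish 4 (18.1 CPM, next 9.90 CPM), gins1 in the optic tectum of fish 2 (27.8 CPM, next 11.8 CPM) and prim2 in the optic tectum of fish 1 (7.50 CPM, next 3.16 CPM). In O. ventralis they were cdk1 in the telencephalon of fish 3 (13.5 CPM, next 6.11 CPM), cenph in the brain stem of fish 3 (33.0 CPM, next 11.6 CPM), cenpp in the telencephalon of fish 3 (16.9 CPM, next 6.97 CPM) and the summed level in the cerebellum of fish 5 (370 CPM, next 312 CPM). The values rest on 4 to 17 reads each, apart from the summed level with 201 reads.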

How the results depend on the processing

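All 13 calls of members in single parts were kept with edgeR's current fit (18 calls in all), with Benjamini-Hochberg adjustment within each comparison (23), without the filter, where 61 members could be called (21), and without the 2 bulb libraries lacking bulb markers (15). Of the 13, 12 were kept with all 60 libraries (12 calls), with DESeq2 (15) and with DESeq2 size factors (12), 11 without the replicate block (12), 10 with filterByExpr (10) and 4 after thinning to 137128 counts, which leaves fewer reads (4). With each fish left out 10 to 13 were kept among 10 to 15 calls, and 22 of 130 were lost. The joint test, passed by 8 members, was passed by 7 without the block, by 4 of the 7 tested with filterByExpr, by 13 without the filter, by 3 after thinning and by 6 to 8 with each fish left out. The variation of part differences with species gave 0 members under all alternatives. Between species within parts, 0 calls became 2 with edgeR's current fit, 1 with DESeq2 size factors, 2 without the filter, 1 without the 2 bulb libraries and 0 to 2 with each fish left out, all of them of cenpp. No direction reversed. Both calls of rfc2 and that of cenpf in the bulb of O. nasuta held under all alternatives that tested them. As given above, cenpf passed the filter only through the bulbs. At this depth, 23 members had fewer than 50 reads in 59 libraries. Why calls were lost was not tested.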
